A study of Mus musculus with 112 samples.

Results

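Gene expression was compared between 2 tissues of the same mouse, the epididymal white fat pad and the gastrocnemius muscle, to see which genes lay high or low together when neither genotype nor diet accounted for it. The arrays were paired by the mouse number in their titles, and 31 of the 41 numbered mice had an array of both tissues, so 62 of the 112 arrays of the series were used. Within each tissue the mean of the mouse's genotype-by-diet group was subtracted from every value, and the deviations in fat and in muscle were correlated for each of 16643 genes. All mice were males of the Pparγ Pro12Ala knock-in line, which carries the variant in every tissue, and the variant itself does not enter the deviations. They were Ala/Ala homozygotes or Pro/Pro (wild-type) littermates, and from 8 weeks of age they ate either chow or a diet rich in fat (HFD). Of the Pro/Pro mice with both tissues 7 ate chow and 8 the HFD, and of the Ala/Ala mice 9 ate chow and 7 the HFD. The labels disagree on the diet: the series text gives 15 weeks of the feed D12330, and the sample descriptions give 12 weeks of the feed D12907B.

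The arrays gave ratios, here on the log2 scale, with a virtual pool made from Pro/Pro mice on HFD as the denominator, per the titles. The sample descriptions speak of pooled wild-type RNA (10 samples) in its place. In fat the ratios of the 10 pool mice averaged to within 0.001 of 1 for all but a handful of probe sets, which fixes the log base and the direction. In muscle 8 pool arrays were analysed and this held for 10.5%, so base and direction were taken to be those of fat, and the sign of every correlation with muscle below rests on that. A ratio to a pool of the same tissue holds no level, so the tissue labels could not be checked against the levels of their markers. Tissue was measured in bulk, so fewer cells of a type and less RNA per cell cannot be told apart. The number of arrays limits the precision: with 31 mice, the 95% interval of a correlation of 0 reaches 0.37 on either side.

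Cells of different organs can vary together in one animal because they share its blood. Glucocorticoids, the adrenal steroid hormones, act through a receptor found in nearly every cell and switch on genes such as Fkbp5, Per1 and the metallothioneins. The circadian clock is a loop in which Arntl (Bmal1) and Clock drive the Per and Cry genes, whose proteins then repress them, so that Arntl and Per transcripts peak at opposite times of the day. Genes can also differ between animals through inherited variants, which every tissue carries.

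Most genes did not vary together in fat and muscle, and a small set did. Of 16643 genes 65 (0.391%) passed the test, 59 (0.355%) with a positive correlation and 6 (0.0361%) with a negative one (partial correlation with 26 residual degrees of freedom, two-sided, Benjamini-Hochberg adjusted p under 0.05). The median correlation over all genes was -0.0024, and 1397 genes (8.39%) had an unadjusted p under 0.05. The weakest call was Timp4, a metalloproteinase inhibitor (r = 0.648, adjusted p = 0.0491), and the strongest gene outside was Zbtb16, a glucocorticoid-induced transcription factor (r = 0.646, adjusted p = 0.0518). All 59 positive genes had a positive r in each of the 4 groups, and the 6 negative genes had a negative r in each. Some of these values were near 0, such as Slc15a2 at 0.01 in Pro/Pro HFD and Mt2 at 0.02 in Ala/Ala chow. Elk3 was at 0.05 in Pro/Pro chow and Cct3 at 0.06 in Ala/Ala HFD. The genes were called on these same deviations, so the selection itself favours 1 sign in all groups. Of tests for a slope that differed by diet or by genotype, 0 genes passed either, with 940 (5.65%) and 872 (5.24%) at an unadjusted p under 0.05.

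**Figure D1:**
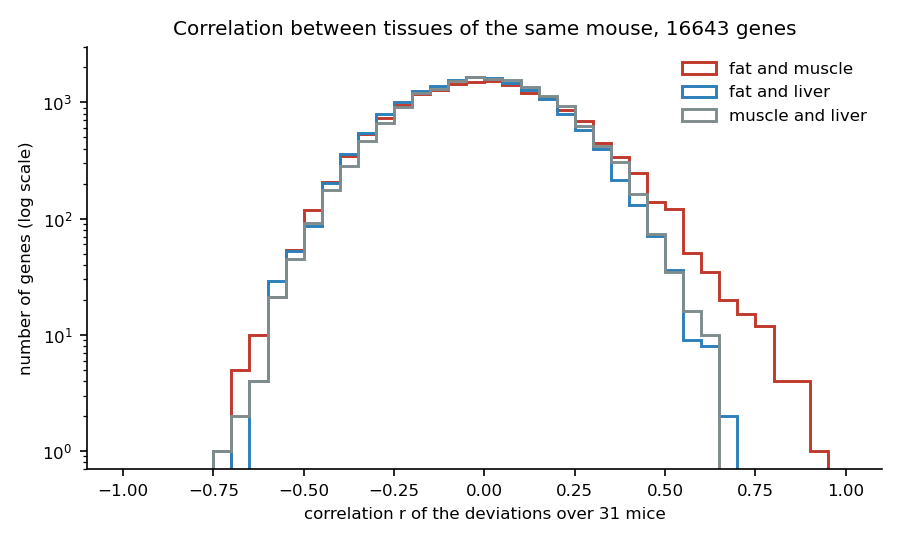
Number of genes (log scale) by the correlation of their deviations between 2 tissues over 31 mice, for fat and muscle, fat and liver, and muscle and liver. The curve of fat and muscle carries a tail beyond 0.7 that the 2 curves with liver lack.

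Liver arrays with the same mouse numbers did not follow fat or muscle. All 31 mice have one, and 0 genes passed for fat and liver (903, 5.43%, at an unadjusted p under 0.05) or for muscle and liver (908, 5.46%), by the same test. Among the 65 genes r ranged from -0.48 to 0.54 between fat and liver and from -0.44 to 0.40 between muscle and liver, and it was above 0 for 26 and 22 of them. These correlations share the fat or muscle arrays with those above. The median within-group SD of the 65 genes was 0.23 in liver, 0.28 in fat and 0.25 in muscle, and 32 of the 65 had a lower SD in liver than in fat. It was 1.09 in liver and 0.60 in fat for Dbp, and 0.29 and 1.16 for Cyp1a1. Whether the numbers of the liver arrays name the same animals was not tested.

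The shared genes placed most mice near their own other tissue. Each mouse was left out in turn, the genes were called again without it (46 to 69 genes), and its fat array was set against all 31 muscle arrays over those genes. Its own muscle array came first for 20 of the 31 mice and among the first 3 for 29. From muscle to fat the own array came first for 14 mice and among the first 3 for 28. The own correlation ranged from 0.25 to 0.70 with a median of 0.53, and the best of the other arrays had a median of 0.47. Against liver the own array came first for 1 mouse from fat and 1 from muscle, with median ranks of 20 and 19. The genes were those called for fat and muscle, a choice that favours a match of these 2 tissues over a match with liver. These ranks are a description with no test. Over all genes, by contrast, fat and muscle of the same mouse correlated by -0.27 to 0.20 (median 0.03), with 2 mice above 0.1.

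**Figure D2:**
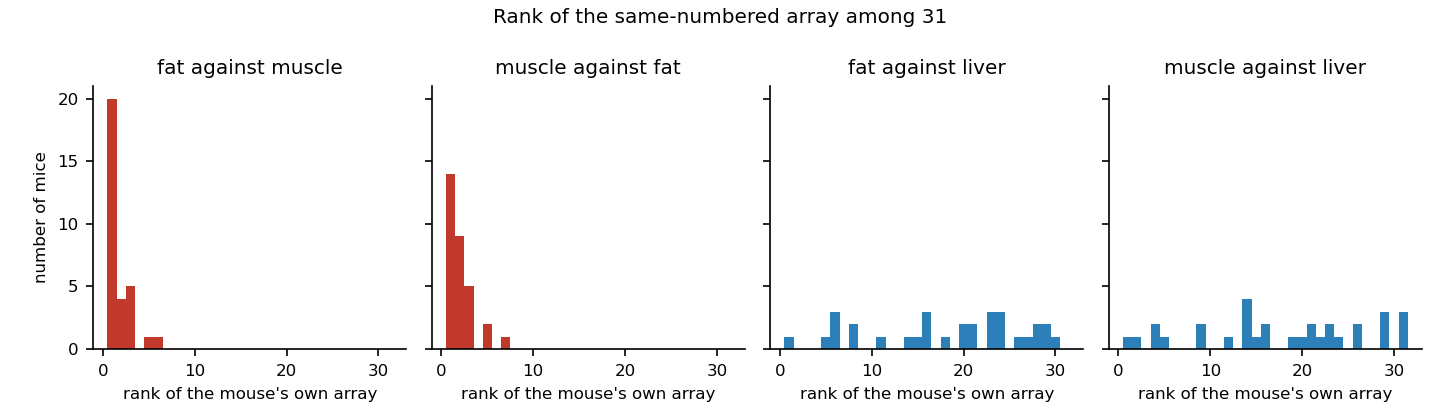
Rank of the array with the same mouse number among 31, in 4 comparisons over the genes called for fat and muscle without that mouse (bars count mice). Ranks between fat and muscle crowd at 1 to 3, and those against liver spread over the whole range.

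Signals of other organs and cells were measured beside this. Of the 31 fat arrays 5 lay above the pool in the mean of a hepatocyte list (range -3.92 to 2.89) and 1 in the mean of an epididymis and testis list (range -1.67 to 1.79). In muscle the hepatocyte list ranged from -4.20 to 0.36 and the adipocyte list from -0.52 to 0.99. Without the 6 fat arrays, on the 25 pairs left, 30 genes passed, of which 28 were among the 65. All 65 kept the sign of r and had an unadjusted p under 0.05 there, with a median absolute r of 0.71. With the adipocyte list in muscle as a covariate 74 genes passed, 58 of them shared. Mouse88 was lowest in fat for Fkbp5, Per2 and Dbp, Mouse147 for Foxo1, Per1 and Mt1, and Mouse94 lowest in muscle for Fkbp5, Foxo1, Mt1, Mt2 and Per1. Without them, an alternative chosen after seeing the data, 30 genes passed on 28 pairs, 28 of them shared, and all 65 kept their sign. In both settings the pairs left are part of the 31 on which the 65 genes were called. That overlap itself favours a kept sign and a low unadjusted p, so these say little about the omitted arrays. Both settings also leave fewer pairs, whose part in the lower counts was not tested.

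Glucocorticoid-responsive genes formed the list with the strongest shared variation. All 21 measured members had a positive r, where 49.6% of all genes did, with a median of 0.50 against -0.0024. Of the 21, 14 had an unadjusted p under 0.05, against 8.39% of all genes. The 6 that passed, against 0.391% of all genes, were Nfkbia, Fkbp5, Per1, Foxo1, Mt1 and Mt2. Mt1 and Mt2, like other genes outside the naming rule below, were named after their values were seen. The list was chosen with results of these data known, so its count is a description. Without Mouse88, Mouse94 and Mouse147 all 21 were still positive with a median of 0.43, and 2 passed.

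Fkbp5 encodes a co-chaperone that damps the glucocorticoid receptor and is itself induced by it. In fat the deviations of Fkbp5 ran from -1.06 (Mouse88) through a median of 0.05 to 0.79 (Mouse149), and in muscle from -0.92 (Mouse94) through 0.10 to 0.73 (Mouse125). Mouse149 stood at 0.64 in muscle, Mouse94 at -0.80 in fat, Mouse88 at -0.15 in muscle, and 27 of 31 mice deviated to the same side in both. The correlation was 0.77 (95% interval 0.56 to 0.89, adjusted p = 0.00148), with a Spearman rho of 0.81, and permuting mice within groups gave p = 3e-05 for r and 2e-05 for rho. Without the 2 mice farthest out in fat r was 0.81. It was 0.52 on chow and 0.88 on HFD, and the difference in slope did not pass (unadjusted p = 0.0322, adjusted p = 0.863). A second probe set of Fkbp5 gave r = 0.69 (adjusted p = 0.0254).

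Nfkbia, the inhibitor that holds NF-κB in the cytoplasm and that glucocorticoids induce, correlated by 0.82 (rho 0.85, adjusted p = 0.000167) over a narrow range. Its deviations were -0.37 to 0.42 in fat and -0.47 to 0.42 in muscle, and Mouse106 was highest in both. Foxo1, a transcription factor restrained by insulin and active in fasting, correlated by 0.69 (adjusted p = 0.0199), and its 2 other probe sets gave 0.70 and 0.69. Foxo1 did not pass without Mouse88, Mouse94 and Mouse147 (0.56, adjusted p = 0.336), without the other-organ fat arrays (0.67, adjusted p = 0.147) or with the first principal component of each tissue removed (0.64, adjusted p = 0.121). The within-group SD of Foxo1 was 0.56 in muscle and 0.27 in fat. The metallothioneins Mt1 and Mt2, small metal-binding proteins encoded by neighbouring genes, correlated by 0.68 and 0.66 (adjusted p = 0.0226 and 0.0378). For Mt1 r was 0.87 in Pro/Pro HFD and 0.10 in Ala/Ala chow, and the 2 calls held in 26 and 18 of 31 single omissions.

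The remaining members of the list fell on both sides of the middle. Tsc22d3 (Gilz), an anti-inflammatory target of the receptor, was at 0.64, Klf9 at 0.59, the pyruvate dehydrogenase kinase Pdk4 and the phosphatase Dusp1 each at 0.50, and the kinase Sgk1 at 0.45. None of these 5 passed. The ubiquitin ligases of muscle wasting, Trim63 and Fbxo32, were at 0.05 and 0.08 and Lcn2 at 0.02, so the members spread from 0.02 to 0.82.

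**Figure D3:**
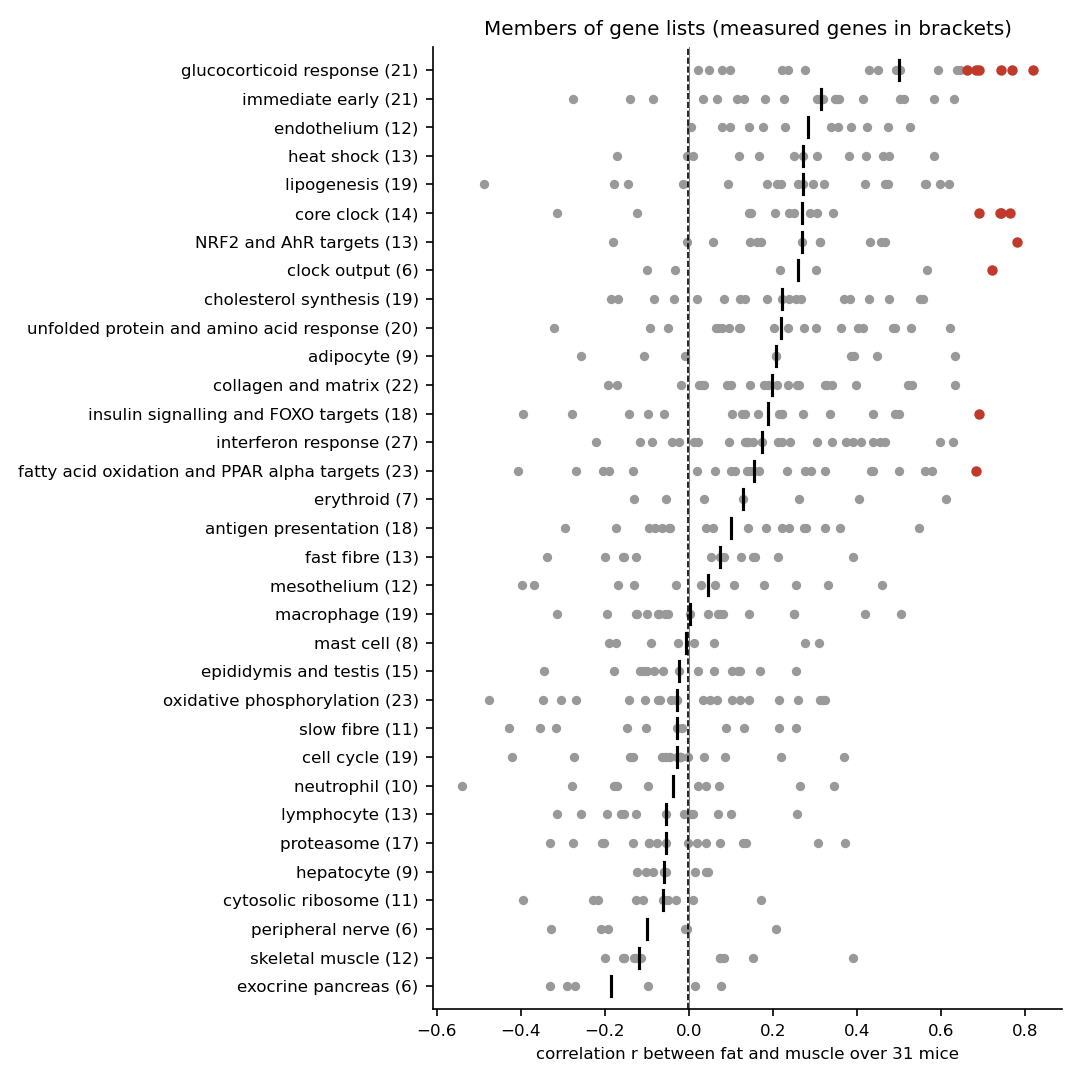
Correlation between fat and muscle of each measured member of gene lists over 31 mice, with genes past the threshold in red, the list median as a black bar and the median of all genes as a dashed line. The glucocorticoid list lies farthest to the right, with a median of 0.50, and the medians of macrophages, lymphocytes, ribosome, oxidative phosphorylation and hepatocytes lie between -0.06 and 0.0022.

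Clock genes ranged widely in r. Of 14 measured core clock genes 4 passed, Per2, Per1, Ciart and Arntl, all positive, where 0.391% of all genes passed, and the median r of the list was 0.27 against -0.0024 over all genes. Per2, which represses its own activators, ranged from -1.03 (Mouse88) to 0.76 (Mouse117) in fat and from -0.85 (Mouse105) to 0.66 (Mouse84) in muscle, and the 5 lowest mice in fat were the 5 lowest in muscle. Its r was 0.77 (rho 0.76, permutation p = 2e-05 and 1e-05, adjusted p = 0.00172). It was 0.69 without Mouse88, Mouse94 and Mouse147 (adjusted p = 0.0620), and a second Per2 probe set gave 0.24 (adjusted p = 0.814). Per1, a Per gene that glucocorticoids also induce, correlated by 0.74 (rho 0.61, adjusted p = 0.00423). It passed in all 31 single omissions but was 0.43 (adjusted p = 0.614) without Mouse88, Mouse94 and Mouse147 together. Mouse94 stood at -1.61 in muscle against a highest value of 0.90, in Mouse137.

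Ciart, a repressor of the Clock-Arntl complex, correlated by 0.74 (rho 0.79, adjusted p = 0.00451), with a within-group SD of 0.53 in muscle and 0.16 in fat. Arntl correlated by 0.69 (rho 0.59, adjusted p = 0.0199). It was highest in Mouse88 in both tissues, at 0.68 and 0.42, and r was 0.53 without Mouse88, Mouse94 and Mouse147 (adjusted p = 0.394) and 0.68 with the first component removed (adjusted p = 0.0579). Of 6 output genes Dbp, a D-box activator driven by the clock, passed with r = 0.72 (adjusted p = 0.00777). Dbp was lowest in Mouse88 in both tissues, at -1.68 and -0.98, and r was 0.60 without the same 3 mice (adjusted p = 0.264). Tef, a relative of Dbp, had r = 0.57 (adjusted p = 0.186).

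The other clock genes did not pass at this number of mice. Npas2 was at 0.29, Per3 at 0.25, Cry2 at 0.24, Cry1 at 0.14, Rora at 0.15, Bhlhe40 at 0.20, Bhlhe41 at 0.30 and Nr1d2 at 0.34. The outputs Nfil3 and Wee1 were at 0.22 and 0.30. Clock was at -0.31, Nr1d1 (Rev-erbα), the strongest repressor of Arntl, at -0.12, Usp2 at -0.10 and Hlf at -0.03. Their adjusted p ran from 0.662 to 0.984. Some of them varied widely: the within-group SD in fat was 0.48 for Nr1d1 and 0.57 for Usp2, against 0.42 for Per2. In muscle the SD of Nr1d1 was 0.19 against 0.41 for Per2.

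**Figure D4:**
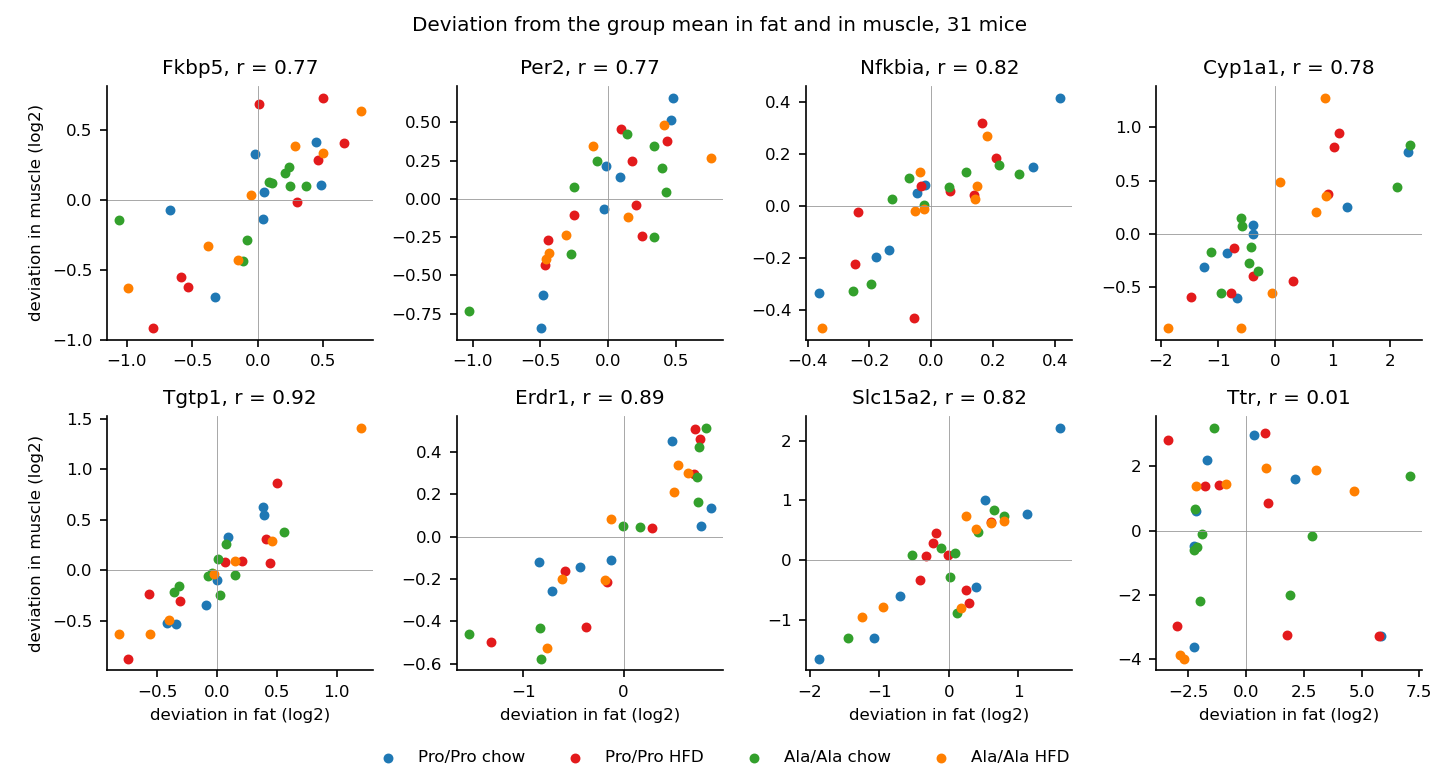
Deviation from the group mean in fat (horizontal, log2) against muscle (vertical, log2) for 8 genes, 1 point a mouse, coloured by genotype and diet. The points of all genes but Ttr run from lower left to upper right, except for the Pro/Pro HFD mice of Slc15a2 (r = 0.01), and those of Ttr show no slope (r = 0.01).

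A block of genes rose and fell together across both tissues, and a smaller block ran against it. For each pair of the 65 genes, r was taken for fat with fat, muscle with muscle and both ways across the tissues. Genes were called partners where all 4 had the same sign and an absolute r of at least 0.5, as a description with no test. Of the 65 genes 25 had at least 10 partners. Mcf2l, a guanine nucleotide exchange factor, had 23 positive and 5 negative partners. The alkaline ceramidase Acer2 had 20 and 7, the stress kinase Map3k6 20 and 5, the AMPK-related kinase Snrk 19 and 2, and Fkbp5 17 and 3. Ifngr1, a chain of the interferon-γ receptor, the junction protein Pkp4, the galactosaminyltransferase Galnt15, Timp4, Foxo1, Per1 and Per2 also belonged there. Nfkbia had only 2 partners, Depp1 and Slc10a6. Nfkbia in fat correlated with Fkbp5 in muscle by 0.04, and Nfkbia in muscle with Fkbp5 in fat by 0.49. Depp1 itself correlated by 0.83 between the tissues (adjusted p = 0.00014). Partners were counted on all 31 mice and not again without Mouse88, Mouse94 and Mouse147. Mcf2l, Map3k6 and Foxo1 were lowest in Mouse147 in fat and in Mouse94 in muscle, and Acer2 the other way round. Other genes of the block had their lowest fat value elsewhere, Pkp4 in Mouse105 and Ifngr1 in Mouse113. The part of these mice in the block was not tested.

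On the opposite side were Arntl with 2 positive and 12 negative partners, Rtl3 with 2 and 12, the ETS factor Elk3 with 4 and 12, and Cd93, a receptor of endothelial cells, with 5 and 9. Fkbp5 in fat correlated with Elk3 in muscle by -0.78, with Cd93 by -0.69 and with Arntl by -0.62, and with Map3k6 in muscle by 0.78, with Sult1a1, a sulfotransferase, by 0.78 and with Galnt15 by 0.78. Fkbp5 in muscle correlated with the same genes in fat by -0.61, -0.65, -0.45, 0.71, 0.68 and 0.61. Arntl in fat correlated with Per2 in muscle by -0.68, and Arntl in muscle with Per2 in fat by -0.85. The endothelium list beside Cd93 had 12 of 12 members positive, where 49.6% of all genes were, with a median r of 0.28 and 0 calls. The mean of this list ranged from -0.21 to 0.25 in fat and from -0.17 to 0.24 in muscle. Between the tissues the list mean correlated by only 0.13 (rho 0.12). Its part in these correlations was not tested.

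**Figure D5:**
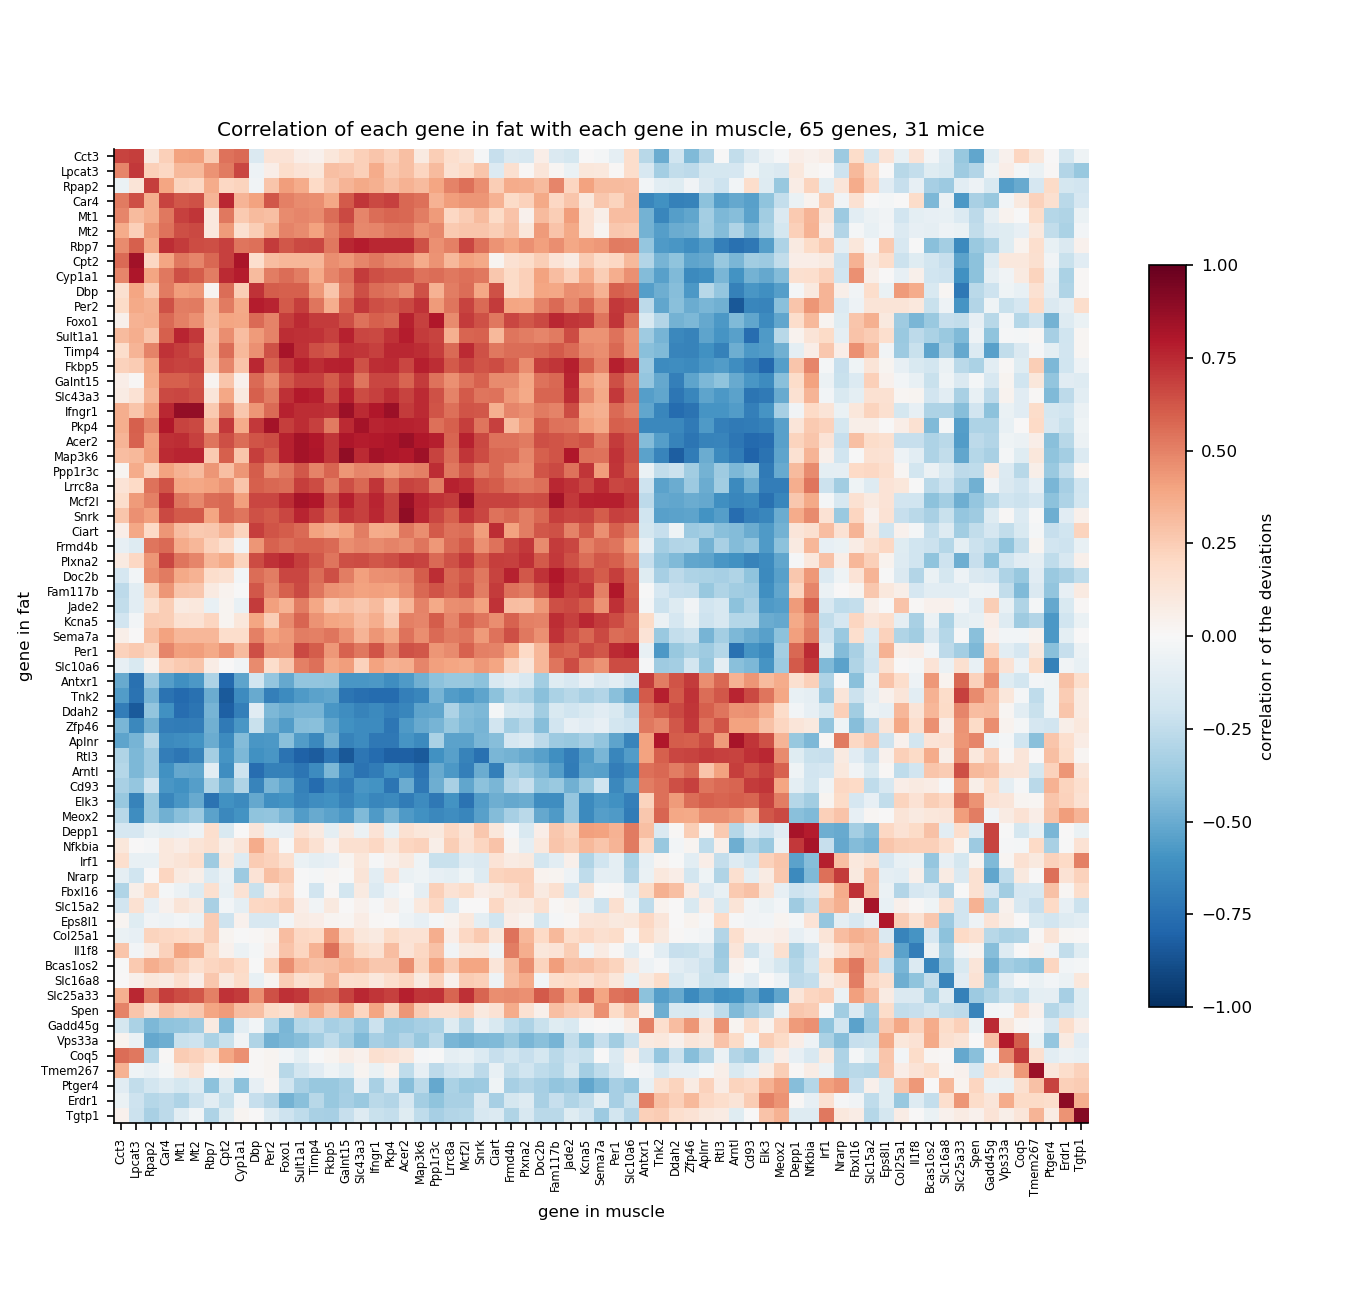
Correlation of each of the 65 genes in fat (rows) with each in muscle (columns) over 31 mice, ordered by average-linkage clustering. A large red block and a smaller one opposed to it (blue) fill the upper left, and the genes at the lower right, Erdr1, Tgtp1, Tmem267 and Slc15a2 among them, are coloured mostly on the diagonal.

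Upstream sequence is shown for those of the 65 genes whose promoter holds a palindrome of the glucocorticoid receptor type, since the receptor binds such elements. It is also shown for 2 clock genes with an E-box, the element of Clock and Arntl. Of the palindrome genes Map3k6 had 20 positive and 5 negative partners, Kcna5 9 and 0, Slc10a6 6 and 0, and Mt1 5 and 1. The 250 bases before the gene start were searched on both strands in RefSeq promoters (GRCm38.p6), and 56 of the 65 genes had one. The palindrome, GNACA and TGTNC 3 letters apart, was present in 4 of 56 genes and in 0.44% of all 27025 genes with a promoter. CACGTG was present in 9 of 56 and in 6.86% of all, and none of the 65 genes held both. The set was not tested against other genes, and a match is a description of letters, not a binding site. Capitals mark the motif, each sequence reads 5′ to 3′ on the gene's strand, and it lies upstream of the annotated start.
Map3k6, chr4:133240612-133240674, plus strand: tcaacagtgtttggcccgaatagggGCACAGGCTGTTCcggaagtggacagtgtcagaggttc
Mt1, chr8:94178970-94179032, plus strand: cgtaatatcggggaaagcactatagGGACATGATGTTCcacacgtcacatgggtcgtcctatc
Slc10a6, chr5:103629529-103629591, minus strand: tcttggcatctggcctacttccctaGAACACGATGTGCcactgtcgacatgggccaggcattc
Kcna5, chr6:126535577-126535639, minus strand: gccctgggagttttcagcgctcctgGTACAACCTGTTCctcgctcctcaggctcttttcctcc
Per1, chr11:69098758-69098813, plus strand: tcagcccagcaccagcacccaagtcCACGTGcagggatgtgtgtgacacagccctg
Ciart, chr3:95882314-95882369, minus strand: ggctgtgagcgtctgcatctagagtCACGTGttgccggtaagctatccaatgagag
Map3k6 correlated by 0.85 between the tissues (adjusted p = 3.91e-05), the bile acid and steroid sulfate carrier Slc10a6 by 0.65 (adjusted p = 0.0491) and the potassium channel Kcna5 by 0.75 (adjusted p = 0.00274). Fkbp5, Gadd45g, Lrrc8a, Nrarp, Ppp1r3c, Slc25a33 and Vps33a were the other genes with CACGTG.

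Genes that covaried between the tissues but had few or no partners made up a further part. Of the 65 genes 17 had no partner, among them the 6 negative genes. A gene that runs opposite ways in fat and muscle can hardly keep 1 sign in all 4 correlations. For the negative genes the lack of partners therefore says little, and Slc25a33 did correlate with other genes across the tissues (below). Tgtp1, an interferon-γ-induced GTPase, had the highest r of all genes, 0.92 (95% interval 0.83 to 0.96, rho 0.90, adjusted p = 6.80e-08, permutation p = 1e-05 for both, the smallest they can give). Its deviations ran from -0.82 to 1.20 in fat and from -0.88 to 1.41 in muscle, and Mouse117 was highest in both. Without Mouse117 r was 0.88. The only partner of Tgtp1 was Irf1, the transcription factor of that response, with r = 0.78 between the tissues (adjusted p = 0.00137) and 0.67 without Mouse117. The interferon list had 22 of 27 members positive, where 49.6% of all genes were, a median r of 0.17 and 0 calls. The nearest to a call were the GTPases Irgm2 (0.63) and Igtp (0.60). Irgm2 was 0.44 without Mouse117.

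Erdr1, a gene of the pseudoautosomal region, correlated by 0.89 (rho 0.86, adjusted p = 1.75e-06). It ran from -1.54 to 0.87 in fat and over a narrower range, -0.58 to 0.51, in muscle, and 29 of 31 mice deviated to the same side in both. Erdr1 lay in a list of strain-variable genes of which it was the only one of 14 to pass, with a list median of 0.16. Slc15a2, a peptide transporter of the plasma membrane, correlated by 0.82 (adjusted p = 0.000167) over a wide range: Mouse85 stood at -1.87 and -1.65 and Mouse84 at 1.60 and 2.21. Within groups r was 0.93 in Pro/Pro chow and 0.01 in Pro/Pro HFD, and a second probe set gave 0.20 (adjusted p = 0.866). Tmem267 correlated by 0.85 (adjusted p = 2.73e-05), the actin regulator Eps8l1 by 0.80 (adjusted p = 0.000562) and Vps33a, a tethering protein of endosomes, by 0.79 (adjusted p = 0.000710). These 3, with Erdr1 and Slc15a2, passed in all 31 single omissions, and so did 29 of the 65 genes.

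Another set centred on Cyp1a1, the monooxygenase induced through the aryl hydrocarbon receptor. It correlated by 0.78 (rho 0.77, adjusted p = 0.00112). In fat Cyp1a1 deviated by 2.13 to 2.35 in Mouse106, Mouse114 and Mouse120 and by 1.24 in Mouse84, all on chow, and these 4 were at 0.25 to 0.83 in muscle. The log2 ratios in fat on chow ran from -3.87 through a median of -3.01 to -0.30 in Pro/Pro and from -3.83 through -3.18 to -0.36 in Ala/Ala, so that a few chow mice reached the range of the HFD mice (-2.07 to 0.96). Its 4 partners were Acer2, the retinol-binding protein Rbp7, the mitochondrial carnitine palmitoyltransferase Cpt2 (r between the tissues 0.68, adjusted p = 0.0226) and Lpcat3, which remodels phospholipids (0.71, adjusted p = 0.0135). Cpt2 did not pass without Mouse88, Mouse94 and Mouse147 (0.70, adjusted p = 0.0598) or with the first component removed (0.60, adjusted p = 0.208). Other targets of this receptor and of NRF2 were weaker: Cyp1b1 was at 0.46, Ahrr at 0.17, Tiparp at 0.14 and Nqo1 at -0.18. Of the 13 measured 1 was called, against 0.391% of all genes, and the median was 0.27. A positive r was found for 11 of the 13, against 49.6% of all genes. An unadjusted p under 0.05 was found for 4, against 8.39%.

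For 6 genes the correlation between fat and muscle was negative. Their median within-group SD was 0.16 in fat and 0.14 in muscle, against 0.29 and 0.29 for the 59 positive genes and 0.18 and 0.15 for all genes. They were Il1f8 (-0.69, adjusted p = 0.0195), Slc25a33 (-0.68), the lactate carrier Slc16a8 (-0.66), the collagen Col25a1 (-0.66), the transcriptional repressor Spen (-0.66) and Bcas1os2 (-0.65, adjusted p = 0.0488). None of the 6 passed in every single omission, and none passed with the first component removed (adjusted p from 0.110 to 0.509). The SD of Slc25a33 was the highest of the 6, at 0.23 in fat and 0.16 in muscle. Slc25a33 is a mitochondrial pyrimidine nucleotide carrier. In fat it correlated with Acer2, Lpcat3, Mcf2l and Foxo1 in muscle by 0.78, 0.76, 0.73 and 0.73, and in muscle it correlated with Acer2, Per2 and Cyp1a1 in fat by -0.56, -0.59 and -0.61. Mouse88 was lowest in fat (-0.34) and highest in muscle (0.29). Without Mouse88, Mouse94 and Mouse147 r was -0.58 (adjusted p = 0.289).

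The metabolic lists had medians above that of all genes and few calls. Of all genes 49.6% had a positive r, 8.39% an unadjusted p under 0.05 and 0.391% passed. Of 19 lipogenesis genes 15 were positive, 8 had an unadjusted p under 0.05 and 0 passed, with a median of 0.27. Acaca and Acly, which make malonyl-CoA and acetyl-CoA, were at 0.62 and 0.60 and the fatty acid synthase Fasn at 0.56, while Gpam was at -0.49. Of 19 cholesterol synthesis genes 15 were positive and 0 passed, with a median of 0.22, and Insig1 was highest at 0.56. Fatty acid oxidation and PPARα targets had 1 call of 23, Cpt2, and a median of 0.16, which was -0.0014 with the first component removed. Heat shock (0.27) and immediate early genes (0.31), which respond within minutes to stimuli, had 0 calls each, with Chordc1 at 0.58 and Zfp36 at 0.63. Pparg itself was at 0.08 (rho 0.01, adjusted p = 0.964).

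Lists of cell types and of housekeeping machinery ranged in their medians from -0.18 for exocrine pancreas and -0.12 for skeletal muscle to 0.13 for erythroid cells, 0.21 for adipocytes and 0.28 for endothelium. The medians were 0.0022 for macrophages, -0.05 for lymphocytes, -0.04 for neutrophils, -0.03 for oxidative phosphorylation, -0.06 for the cytosolic ribosome and -0.03 for the cell cycle, with 0 calls in each. Calls were counted among genes with a wide spread: of the 477 genes in the top 10% of within-group SD in both, 16 (3.35%) passed, against 0.391% of all genes, and 177 (37.1%) had an absolute r under 0.1, against 35.5% of all genes. The 8 with the widest spread among those 177 were liver secretory and metabolic genes, Ttr, Fga, Fabp1, Bhmt, Fgb, Hamp, Apoa2 and Mup3. Ttr, the thyroxine carrier, deviated by -3.36 to 7.09 in fat and by -3.98 to 3.20 in muscle, with r = 0.01 (rho 0.23, adjusted p = 0.993). Mouse113, the highest in fat, was at 1.71 in muscle. Some Ttr ratios sat at the lower bound of the scale, -6.64, where values have no order.

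The group means, which the deviations leave out, gave a separate reading of the 65 genes. In fat 22 of the 65 (33.8%) differed between HFD and chow (limma, Benjamini-Hochberg adjusted p under 0.05), against 39.9% of all genes, 7 of them higher on HFD (21.6% of all genes were) and 15 lower (18.3%). In muscle 5 (7.69%) differed, against 7.34% of all genes, 4 higher (2.79%) and 1 lower (4.55%). Both shares lay near those of all genes. Antxr1, Cpt2, Cyp1a1 and Lpcat3, 4 of the 65, differed in both tissues in the same direction, against 396 of all 16643 genes. Cyp1a1 was higher on HFD by 2.53 ± 0.34 (SE) in fat and 1.60 ± 0.19 in muscle. Lpcat3 was higher by 1.003 ± 0.062 and 0.395 ± 0.043. Antxr1, a collagen-binding receptor, was lower, with differences of -0.37 ± 0.08 and -0.33 ± 0.06. Fkbp5 fell by 0.45 ± 0.15 on HFD in fat (adjusted p = 0.0156) and differed by -0.11 ± 0.15 in muscle (adjusted p = 0.760). Per2 did not pass in fat (-0.26 ± 0.13, adjusted p = 0.117) and was 0.40 ± 0.13 higher in muscle (adjusted p = 0.0455). None of the 65 differed between the genotypes in either tissue, where limma called 9 of all genes in fat (0.0541%, of which 0.018% higher and 0.0361% lower in Ala/Ala) and 6 in muscle (0.0361%, of which 0.024% higher and 0.012% lower).

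Other probe sets of the same genes gave a further reading of the calls. Of the 65 genes 20 had 27 other probe sets, of which 25 correlated with the same sign, 16 with an r of at least 0.5 and 9 past the threshold over all probe sets. Pkp4 (0.77), Nfkbia (0.75) and Timp4 (0.74) were the highest. The 2 of the opposite sign belonged to Fam117b (-0.13) and Frmd4b (-0.14). The calls lay on 19 chromosomes with at most 8 on 1, and only Mt1 and Mt2 were direct neighbours among the measured genes.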

How the data were processed

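The authors deposited log10 ratios for 32640 probe sets as 1 table of all arrays, made with Rosetta Resolver per the series text. They were rescaled to log2. Probe sets were named through the platform annotation and current RefSeq symbols: 25508 had 1 symbol and 7132 none, and the probe set with the highest within-tissue variance stood for each of 16643 genes. Partial correlations on the 4 group means were computed in Python 3.11.15 (scipy 1.17.1), with 100000 permutations within groups for 80 named genes, and group differences with limma 3.58.1. The correlation procedure was tested on simulated data. P-values measure the spread between mice.

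Named genes were the 15 highest and up to 8 lowest r past the threshold, all clock genes, up to 4 members past the threshold of each other list or else its member of smallest p, 8 genes that varied in both tissues with an absolute r under 0.1, and Pparg. Other genes were named after their values were seen. The members and lists were chosen with earlier results of these data known. Alternatives covered normalization, probe sets, a filter on SD, group means, rank correlation, removal of 1 component per tissue, other organs, fat cells in muscle and single omissions.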

Additional observations from a re-analysis of the deposited data

Results flagged for a closer look

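Values of the 29 named genes past the threshold were searched for samples far from the rest of their group, with Dixon's test over 232 gene and group combinations. Chance sets apart about 1 in 20, and 13 of the 232 stood apart, a share near that. The combinations share mice, so they are not independent. In Ala/Ala chow Mouse88 lay apart 7 times. In fat it was lowest for Fkbp5 (-0.60, next 0.34), Per2 (-0.70, next 0.05) and Pkp4 (-0.12, next 0.26). In muscle it was lowest for Map3k6 (-0.62, next -0.02), Per1 (-1.08, next -0.13) and Col25a1 (-0.31, next -0.07) and highest for Arntl (0.48, next 0.14). Mouse122 of the same group was highest for Eps8l1 in muscle (0.80, next 0.15) and for Vps33a in fat (0.26, next -0.09). In Pro/Pro HFD fat Mouse147 was lowest for Pkp4 (-0.51, next -0.14) and Spen (-0.50, next -0.07). Mouse94 of that group was lowest for Slc16a8 in fat (-0.28, next -0.07) and highest for it in muscle (0.32, next 0.09).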

How the results depend on the processing

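The count of 65 genes was within 1.5 times under centring (57), quantile normalization (80), averaged (70) or single (93) probe sets, the SD filter (72), group means over all arrays (51), rank correlation (46) and the adipocyte covariate (74). A like count did not mean the same genes. Of the 65, 54 were shared under centring, 54 under quantile normalization and 60 with averaged probe sets. The SD filter shared 51, group means over all arrays 51, rank correlation 39 and the adipocyte covariate 58. It was 37 with the first component of each tissue removed (32 shared), 30 without the other-organ fat arrays, 30 without Mouse88, Mouse94 and Mouse147 (chosen after seeing the data) and 159 at an adjusted p of 0.20. Single omissions gave 46 to 69. Without the other-organ arrays 28 of the 65 were shared, and without the 3 mice also 28. The losses listed next are only those among the 29 genes past the threshold that the naming rule picked. Most losses among the 65 were of genes not listed. Without the other-organ arrays Arntl, Per1 (adjusted p = 0.0509), Dbp, Foxo1, Cpt2, Slc25a33, Slc16a8, Col25a1, Spen and Bcas1os2 no longer passed. With the component removed Arntl, Foxo1, Cpt2 and the 6 negative genes did not pass. Without the 3 mice Per2, Per1, Arntl, Dbp, Foxo1, Cpt2, Il1f8, Slc25a33, Slc16a8, Col25a1 and Spen did not. The cause was not tested.

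Muscle and liver shared 1 gene with averaged or single probe sets and 0 to 1 in single omissions (1 without Mouse73 or Mouse117), fat and liver 0 to 0. A slope by genotype passed for 1 gene under the SD filter and 0 to 1 in omissions (Mouse113), and a slope by diet for 1 without the other-organ arrays and 0 to 2 (Mouse141). The median r ranged from -0.0074 to 0.0060 in omissions. The adipocyte covariate was not run for fat and liver.

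A fit of both tissues with mouse number as a replicate block, which also pools their residual spread, gave 16 genotype calls in fat, 15 in muscle and 771 diet calls in muscle. The consensus correlation of the pairing was -0.0026 over the pairs, and the parts of block and pooling were not separated. Averaging probe sets gave 5 genotype calls in fat, and the paired mice alone 4. Single probe sets gave 14 genotype calls in fat, 11 in muscle and 12632 diet calls in fat. The SD filter, which tests fewer genes, gave 4 and 0 genotype and 2018 and 248 diet calls in fat and muscle. Omissions gave 6288 to 6961 diet calls in fat, 1038 to 1283 in muscle, 7 to 11 genotype calls in fat and 6 to 11 in muscle (11 without Mouse84, 10 without Mouse127).

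Among the 80 named genes, the signs that turned under averaging, centring, component removal or single omissions were of genes that had not passed, while other probe sets of Fam117b and Frmd4b, which passed, had the opposite sign. Averaged probe sets gave Clock 0.26 and Hlf 0.23. Removing the component gave Bhlhe40 -0.045, Krt8 -0.27, Fga 0.022, Fabp1 0.044, Apoa2 0.038, Mup3 0.027 and Pparg -0.052. Single omissions reached -0.031 for Cry1, 0.10 for Hlf, -0.061 for Ttr, 0.051 for Fga, 0.049 for Fabp1, 0.11 for Bhmt, 0.037 for Fgb, -0.11 for Hamp, 0.084 for Apoa2, 0.084 for Mup3 and -0.0023 for Pparg. Values at the floor of the ratio scale (64 in the table) and the unsettled direction in muscle limit what r shows.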
